A study of Mus musculus with 16 samples.

Results

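The Obox genes are a mouse family of homeobox genes transcribed mainly in the oocyte and the early embryo. The members were every table entry whose name was 1 of the 7 names Obox1, Obox2, Obox3, Obox5, Obox6, Obox7 and Obox8. The names Obox1, Obox2, Obox3, Obox5, Obox6 and Obox7 had 1 entry each, so the family was represented by 6 of the 28618 entries, and Obox8 is not analysed here. RNA was sequenced from germinal vesicle (GV) oocytes, still in meiotic prophase, and from ovulated eggs labelled metaphase II (MII), the stage that ends maturation. The 16 libraries formed 4 groups of 4: WT GV oocytes, Psma7 cKO GV oocytes, WT MII eggs and Psma7 cKO MII eggs.

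The cKO females carried floxed Psma7 alleles and Zp3-Cre (Psma7 fl/fl;Zp3-Cre), so that CRE driven by the promoter of a zona pellucida gene removed Psma7, which encodes an alpha subunit of the proteasome core, in growing oocytes while the other cells of the follicle kept it. All females were 3 to 4 weeks old and received 5 IU of PMSG. GV oocytes were taken 44 h later, whereas for eggs hCG was given at that time and the oviducts were emptied 14 to 16 h afterwards, with cumulus cells removed in 0.3% hyaluronidase. The labels give 5 oocytes per library, the study's methods give another pool size, and neither says whether a pool came from 1 female or several, so p-values measure the spread between these libraries. The labels name no selection of eggs by polar body. In the study, some ovulated cKO oocytes released no first polar body or remained at the GV stage. Whether the cKO egg pools held such cells is not given.

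A homeobox is the stretch of coding sequence that encodes a homeodomain, a fold that binds DNA. Maternal Obox transcripts are stored in the growing oocyte, and Obox proteins are known to act in the embryo when its genome is first transcribed, with members able to stand in for one another. Obox1, Obox2, Obox5 and Obox7 are known as maternal members, whereas Obox3 and Obox6 are known mainly from the embryo.

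The homeobox sequences are shown because they say how alike the members are, and hence how far short fragments can be told apart. They were read 5′ to 3′ on the coding strand from GENCODE release M21 transcripts (GRCm38), and capitals mark bases that differ from Obox5 in the alignment.
Obox5: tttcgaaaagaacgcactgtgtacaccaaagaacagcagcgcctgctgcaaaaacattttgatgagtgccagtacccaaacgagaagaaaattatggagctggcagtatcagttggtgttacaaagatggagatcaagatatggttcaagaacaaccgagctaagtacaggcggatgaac
Obox1: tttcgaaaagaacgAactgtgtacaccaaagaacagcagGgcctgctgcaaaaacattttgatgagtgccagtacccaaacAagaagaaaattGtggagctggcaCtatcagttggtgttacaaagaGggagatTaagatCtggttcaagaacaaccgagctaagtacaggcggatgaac
Obox2: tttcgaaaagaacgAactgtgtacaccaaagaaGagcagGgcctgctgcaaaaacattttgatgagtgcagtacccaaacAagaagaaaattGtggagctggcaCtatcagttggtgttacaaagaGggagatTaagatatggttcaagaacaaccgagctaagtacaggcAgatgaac
Obox7: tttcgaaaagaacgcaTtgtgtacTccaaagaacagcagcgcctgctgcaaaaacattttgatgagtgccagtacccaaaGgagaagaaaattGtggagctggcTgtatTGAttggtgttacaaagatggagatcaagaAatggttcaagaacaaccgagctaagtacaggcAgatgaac
Obox3: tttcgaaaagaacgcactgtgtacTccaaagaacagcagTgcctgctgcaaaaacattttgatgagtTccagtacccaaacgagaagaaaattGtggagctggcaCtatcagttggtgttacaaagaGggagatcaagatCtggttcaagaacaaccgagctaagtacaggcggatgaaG
Obox6: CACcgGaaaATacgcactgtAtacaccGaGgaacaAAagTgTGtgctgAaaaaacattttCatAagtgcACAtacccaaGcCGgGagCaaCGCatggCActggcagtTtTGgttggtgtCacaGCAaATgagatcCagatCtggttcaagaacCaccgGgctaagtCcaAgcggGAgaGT
The first and last homeobox bases lie on chromosome 7, split between exons, at chr7:15757941-15758580 for Obox5 (plus strand), chr7:15555567-15556192 for Obox1 (plus), chr7:15397250-15397875 for Obox2 (plus), chr7:14664442-14665309 for Obox7 (plus), chr7:15626284-15626933 for Obox3 (minus) and chr7:15833909-15834517 for Obox6 (minus).

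Over the 180 homeobox bases, Obox1 and Obox3 each differed from Obox5 at 8 bases and Obox7 at 10. Obox6 differed at 49 bases and was the most distant of the members with an entry. The Obox2 homeobox was found by alignment, is 179 bases long and differed from that of Obox1 at 3 aligned bases. It lacks 1 base, and the annotated Obox2 coding sequence of 456 bases ends before the last base of this stretch, at coding position 458, whereas that of Obox1 runs to 615 bases. Past the missing base the annotated Obox2 reading frame no longer follows that of Obox1, so it does not encode the rest of the homeodomain. Which protein Obox2 RNA yields is not measured by RNA-seq.

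Full-length Obox1 and Obox2 transcripts were 99.2% identical over 1459 aligned bases. Of all 50-base windows of the Obox1 transcript, 40.7% occurred in no transcript of another gene, and 58.0% were shared with Obox2. For Obox2 the unique share was 37.0%, and at 100 bases the unique shares of these members were 59.1% and 57.5%. Obox5 and Obox7 were better separated, with unique 50-base shares of 87.0% and 79.8% and unique 100-base shares of 99.9% and 97.3%. Obox3 had 59.4% unique 50-base windows, with most of its sharing with the pseudogene Obox3-ps3, and Obox6 had 94.98%. The division of fragments between Obox1 and Obox2 is therefore uncertain, and how the authors counted fragments that match several genes is not given in the sources used here. The annotated span of Obox1 also overlaps that of Obox2, and the span of Obox3 overlaps that of Obox1 on the opposite strand, while a use of strand in the counting is not stated.

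**Figure D1:**
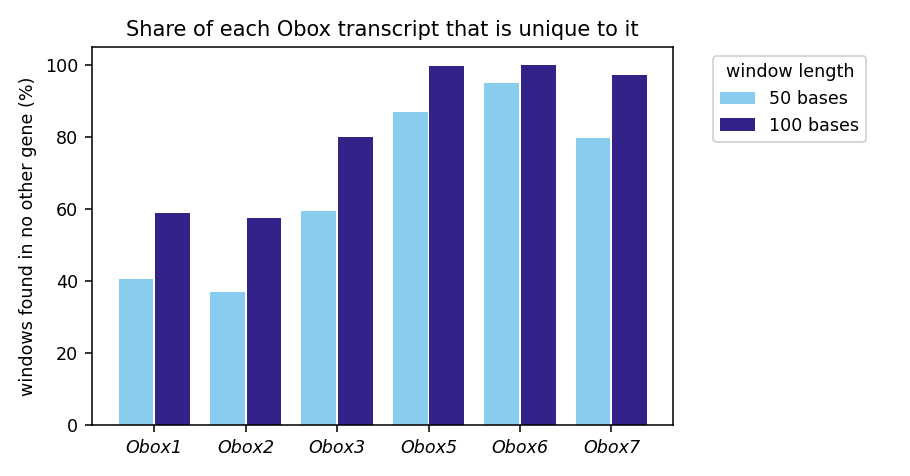
Share of 50-base (light) and 100-base (dark) windows of the transcript of each Obox member with an entry, in percent on the y axis, that occur in no transcript of another gene in GENCODE M21. Among these 6 members Obox1 and Obox2 have the lowest shares at 50 bases, 40.7% and 37.0%, and Obox6 the highest, 94.98%.

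The values are FPKM, the fragments of a transcript scaled by its length and by all fragments mapped in the library, so levels can be compared between genes and each is a share of its library. Summed FPKM was 392306 to 421173, and steps between the smallest values gave an estimated depth of 10.5 to 15.6 M fragments in each of the 16 libraries. Pearson correlations between libraries of a group were 0.965 to 0.992 over 10615 entries. Psma7 was at 142 to 201 FPKM in WT GV oocytes and 11.1 to 18.0 FPKM in cKO GV oocytes. Among eggs Psma7 was at 97.7 to 172 FPKM in WT and 13.6 to 59.9 FPKM in cKO, so every library fitted its genotype label. Within cKO, Psma7 had a group mean of 14.6 FPKM in GV oocytes and 39.7 FPKM in eggs (log2 fold change 1.27, adjusted p = 0.0188 in limma). The 10 oocyte markers each passed 1 FPKM in at least 1 library of every group. Of 12 cumulus and granulosa markers only Kitl and Cyp19a1 reached 1 FPKM. The list summed to 11.7 to 13.6 FPKM in WT and 14.2 to 17.0 FPKM in cKO GV oocytes. In eggs it summed to 17.1 to 20.8 FPKM in WT and 18.7 to 20.7 FPKM in cKO. Among granulosa cell genes of the list, Foxl2, Amh and Amhr2 had group means of at most 0.0536 FPKM. Fshr and Inha were higher in GV oocytes, Fshr at 0.482 FPKM in WT and 0.634 FPKM in cKO and Inha at 0.146 and 0.435 FPKM. The part of these sums in the results was not tested.

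Obox5 was the most abundant member, followed by Obox2, Obox1 and Obox7 in each of the 16 libraries, and Obox3 and Obox6 stayed below 1 FPKM throughout. Obox5 ranked 35 to 53 among all entries in GV oocytes and 12 to 19 in eggs. Together the 6 entries took 0.395% to 0.604% of summed FPKM in GV oocytes and 1.09% to 1.42% in eggs, and Obox5 held 50.9% to 58.6% of the family sum in every library. With the annotated transcript lengths and the depths above, Obox7 rested on at least about 2450 fragments in a library and Obox5 on at least about 19700, both lowest in cKO GV replicate 4.

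Obox5 in WT GV oocytes was at 944, 996, 1323 and 1055 FPKM in replicates 1 to 4, and in cKO GV oocytes at 1038, 996, 807 and 1025 FPKM. In WT eggs Obox5 was at 3034, 3020, 2789 and 2753 FPKM, and in cKO eggs at 2294, 2718, 2600 and 2796 FPKM. The genotypes overlapped at both stages, replicate 3 was the highest WT and the lowest cKO library at the GV stage, and every egg library lay above every GV library. Group means were 1079 ± 169 (SD, n = 4) in WT GV oocytes, 967 ± 108 in cKO GV oocytes, and for eggs 2899 ± 148 in WT and 2602 ± 221 in cKO.

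Obox2 in WT GV oocytes was at 394, 385, 609 and 457 FPKM, and in cKO GV oocytes at 457, 375, 347 and 473 FPKM. In WT eggs it was at 1297, 1274, 948 and 986 FPKM, and in cKO eggs at 997, 1034, 947 and 888 FPKM. The WT eggs fell apart into replicates 1 and 2, which were above all cKO eggs, and replicates 3 and 4, which lay within their range. Obox2 group means were 461 ± 104 and 413 ± 61.7 FPKM in WT and cKO GV oocytes and 1126 ± 185 and 967 ± 63.1 FPKM in WT and cKO eggs (SD, n = 4).

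Obox1 in WT GV oocytes was at 289, 293, 427 and 329 FPKM, and in cKO GV oocytes at 344, 277, 254 and 356 FPKM. In WT eggs it was at 922, 933, 749 and 811 FPKM, and in cKO eggs at 741, 783, 742 and 695 FPKM. The same WT libraries were high as for Obox2, its near copy, and 3 of the 4 WT eggs were above all cKO eggs. Obox1 was 0.701 to 0.822 times the level of Obox2 in every library, so the order of their values held within libraries. How shared fragments were divided between these members is not given, so this order is uncertain for the genes themselves. The ranges of Obox1 and Obox2 overlapped across libraries in WT GV oocytes and in cKO GV oocytes and did not overlap in either group of eggs.

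Obox7 in WT GV oocytes was at 136, 149.97, 184 and 150.13 FPKM, and in cKO GV oocytes at 168, 170.1, 152 and 158 FPKM. In WT eggs it was at 395, 394, 336 and 433 FPKM, and in cKO eggs at 349, 374, 332 and 394 FPKM. Obox7 also overlapped between genotypes and was higher in every egg library than in every GV library. It did not follow Obox1 and Obox2 in eggs, where WT replicate 4 was its highest library.

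**Figure D2:**
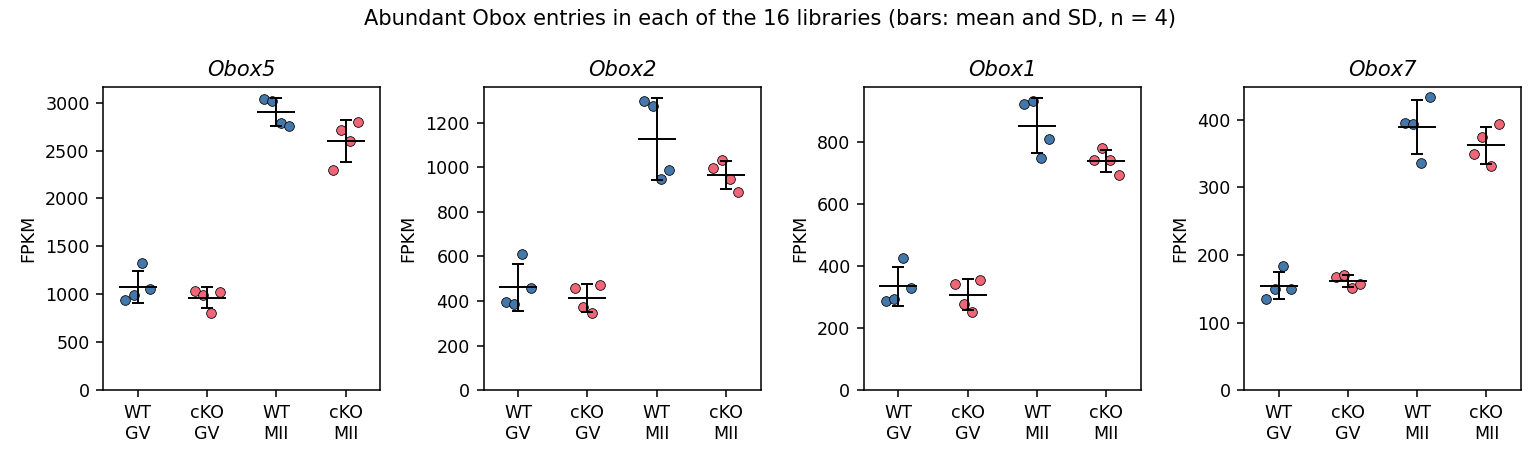
FPKM (y axes, starting at 0, with a scale for each panel) of Obox5, Obox2, Obox1 and Obox7 in the 4 libraries of each group, drawn in the order of replicates 1 to 4, with WT in blue, cKO in red and black bars for mean and SD. In each panel every egg library is above every GV library and the genotypes overlap.

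Whether loss of Psma7 altered the stored Obox transcripts was compared within each stage. In GV oocytes 0 of the 4 tested members passed an adjusted p of 0.05 in limma, where 0.118% of all 11062 entries did (0.0452% to 0.172% with 1 library left out), and 0 of 4 had an unadjusted p below 0.05, where 10.7% of entries did. Obox5 in cKO GV oocytes was at 0.899 times the WT level (95% confidence interval 0.742 to 1.09), a log2 fold change of -0.15 ± 0.13 (SE) with an adjusted p of 0.721. Obox2 was at 0.903 times WT (0.711 to 1.146), Obox1 at 0.921 times (0.734 to 1.16) and Obox7 at 1.05 times (0.90 to 1.23), with adjusted p in limma of 0.796, 0.834 and 0.855. Exact permutation tests gave p of 0.429 for Obox5, 0.486 for Obox2 and 0.514 for both Obox1 and Obox7, 2-sided and unadjusted. The direction of Obox1 rested on WT replicate 3, since without that library its log2 fold change was 0.0050 in place of -0.12, and that of Obox2 was -0.0056 in place of -0.15 and that of Obox5 -0.05 in place of -0.15. Obox7 had a log2 fold change of 0.16 without it in place of 0.07.

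In MII eggs the 4 tested members had fitted levels below WT, but 0 of 4 passed the adjusted threshold in limma, where 8.02% of 9492 entries did (6.53% higher and 1.49% lower). That share rested on single libraries, since with 1 egg library left out it ranged from 0.0315% (without WT replicate 3) to 12.2% (without cKO replicate 2), and was 0.126% without WT replicate 1. Obox1 in cKO eggs was at 0.870 times the WT level (95% confidence interval 0.763 to 0.993), a log2 fold change of -0.20 ± 0.08 (SE), and was the 1 member of 4 with an unadjusted p below 0.05 (0.0406), as 29.4% of tested entries had, with an adjusted p of 0.151. Obox2 was at 0.866 times WT (0.722 to 1.04, adjusted p = 0.261 in limma), Obox5 at 0.896 times (0.788 to 1.018, adjusted p = 0.228) and Obox7 at 0.932 times (0.810 to 1.07, adjusted p = 0.481). Exact permutation p-values were 0.0571 for Obox1, 0.0857 for Obox5, 0.229 for Obox2 and 0.286 for Obox7, and 70 arrangements of 4 libraries against 4 allow none below 0.0286. The lowest end of any of these intervals was 0.711 times WT in GV oocytes and 0.722 times WT in eggs.

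The family sum overlapped between genotypes in eggs, at 4823 to 5647 FPKM in WT and 4382 to 4909 FPKM in cKO. As a share of summed FPKM it was 1.23% to 1.42% in WT eggs and 1.09% to 1.21% in cKO eggs. On that scale the ranges did not meet, by a narrow gap between 1.2293% (WT replicate 3) and 1.2098% (cKO replicate 2). The share of all entries separated on that scale is not given here, so this gap has no background to be set against. Summed FPKM was 392306 to 401666 in WT eggs and 402865 to 415498 in cKO eggs. The median log2 fold change of all tested entries was 0.07 in eggs, against -0.10 to -0.21 for the 4 members.

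Whether the transcripts changed over maturation was compared within each genotype. All 4 abundant members rose from GV oocytes to eggs in WT, where 26.1% of 10475 tested entries passed the threshold upwards in limma and 52.4% downwards. Obox5 in WT eggs was at 2.71 times its GV level (95% confidence interval 2.29 to 3.20), a log2 fold change of 1.44 ± 0.11 (SE, adjusted p = 4.33e-07 in limma). Obox1 was at 2.57 times (2.11 to 3.14), Obox7 at 2.52 times (2.13 to 2.98) and Obox2 at 2.46 times (1.93 to 3.14), with adjusted p of at most 2.1e-05. Their rises lay above those of 96.8% (Obox2) to 98.0% (Obox5) of the tested entries, whose median log2 fold change was -0.44.

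In cKO the 4 members also rose, where 23.0% of 10748 tested entries did and 51.0% fell. Obox5 in cKO eggs was at 2.70 times its GV level (95% confidence interval 2.28 to 3.19, adjusted p = 4.86e-06 in limma), Obox1 at 2.43 times (2.02 to 2.92), Obox2 at 2.36 times (1.97 to 2.82) and Obox7 at 2.24 times (1.97 to 2.54). The log2 fold changes of 1.16 (Obox7) to 1.43 (Obox5) lay above those of 96.1% to 98.4% of tested entries, whose median was -0.42. GV libraries and egg libraries did not overlap for 4 of 4 members in either genotype, as for 23.9% of tested entries upwards in WT and 21.4% in cKO, and each exact permutation p was 0.0286, the smallest that 4 libraries against 4 can give.

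A ratio of group means over 3, after values below 1 FPKM were set to 1, was also counted, with the fold threshold and the floor of the study. How the study formed its ratio is not given in the sources used here, so these counts need not be its own. Obox3 and Obox6 lay below that floor in every library, so they could not meet it. Over maturation 0 of the 4 abundant members met it, and it was met upwards by 1.07% of tested entries in WT and 0.856% in cKO. Between genotypes 0 of these 4 members met it as well, beside 0.0633% of tested entries in GV oocytes and 1.78% in eggs. At a ratio of 2 the count was 4 members in each genotype, against 7.64% and 5.92% of tested entries, and Obox5 passed 3 once libraries were rescaled by the median ratio. cDNA was primed with oligo-dT and FPKM is a share of the library, so a rise in RNA per cell, a rise in the part of it that carries a long poly(A) tail and a fall of other transcripts cannot be told apart here.

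**Figure D3:**
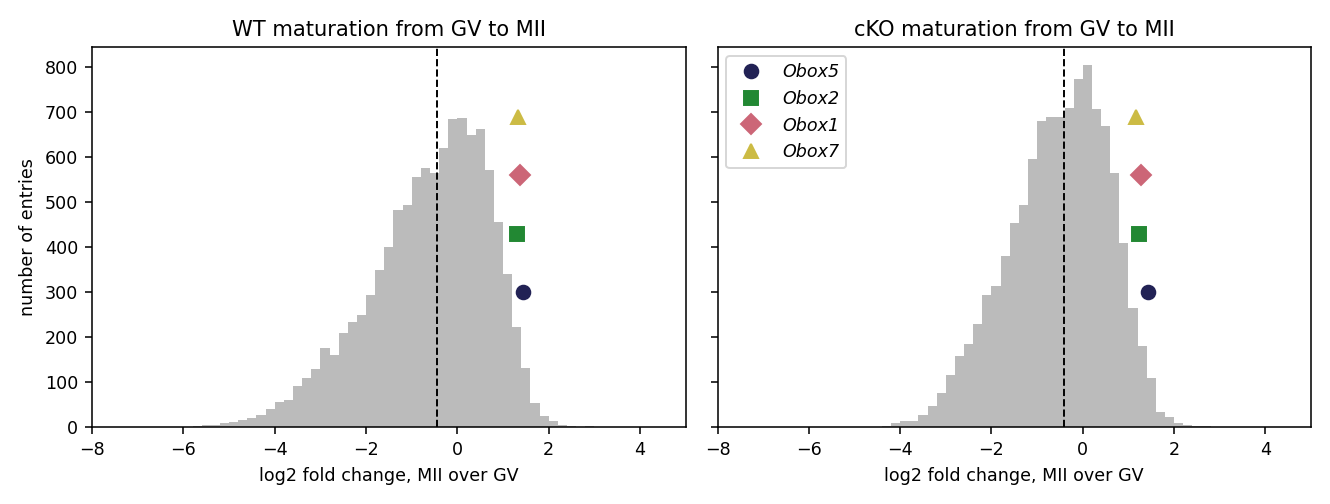
Log2 fold change from GV oocytes to MII eggs (x axes) of all tested entries, as a histogram with the number of entries on the y axis, in WT (left) and cKO (right). Symbols mark Obox5, Obox2, Obox1 and Obox7 at their x position only (their height is arbitrary), and dashed lines mark the medians of -0.44 and -0.42.

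Whether the rise differed between genotypes was tested as an interaction over the 16 libraries. It passed the threshold in limma for 0 of 4 members, against 1.26% of 10615 entries (0.388% without cKO GV replicate 3 to 6.1% without cKO MII replicate 2), with 0 of 4 at an unadjusted p below 0.05, where 17.7% of entries were. The difference in log2 fold change, cKO minus WT, was -0.0045 for Obox5 (95% confidence interval -0.33 to 0.32), -0.06 for Obox2 (-0.50 to 0.39), -0.08 for Obox1 (-0.47 to 0.31) and -0.17 for Obox7 (-0.46 to 0.12), with adjusted p of 0.566 to 0.991. The interaction used libraries of both maturation comparisons and of both genotype comparisons, so these results are not independent of one another.

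**Figure D4:**
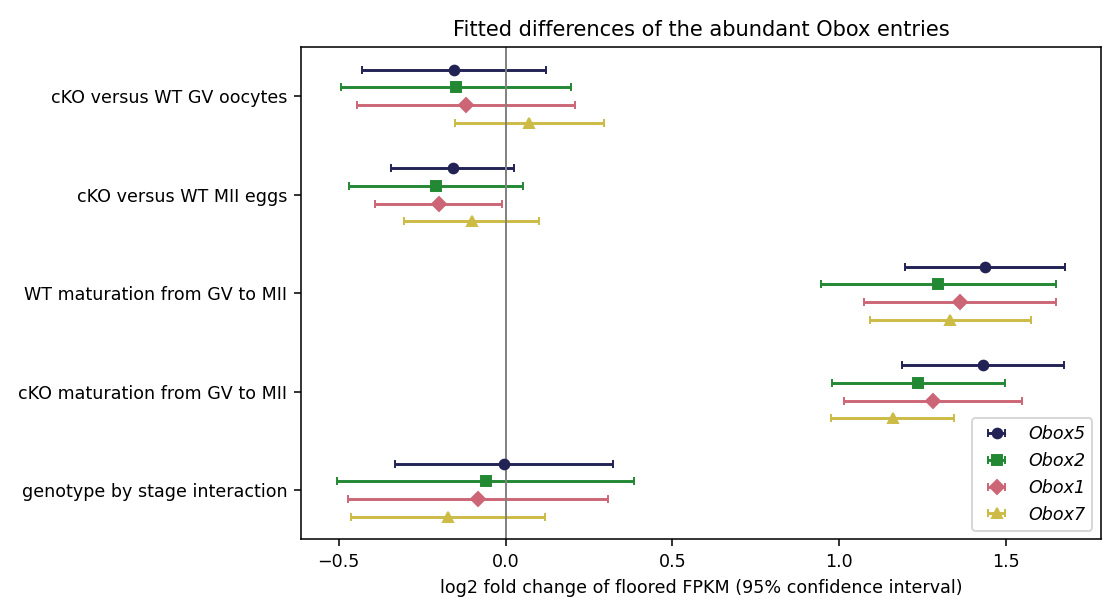
Fitted log2 fold changes on the x axis with 95% confidence intervals for Obox5, Obox2, Obox1 and Obox7 in the 5 comparisons named on the y axis. The 8 maturation intervals lie above 0.9, and those between genotypes and of the interaction include 0 except that of Obox1 in eggs, which ends at -0.01.

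The abundant members varied together. Across the 16 libraries Pearson r of log2 FPKM was 0.958 (Obox2 and Obox7) to 0.997 (Obox1 and Obox2), which includes the difference between stages. After group means were removed r was 0.973 for Obox1 and Obox2, 0.802 for Obox1 and Obox5, 0.681 for Obox5 and Obox7 and 0.507 for Obox2 and Obox7. These are descriptions over libraries that every member shares, and Obox1 and Obox2 also share sequence. WT GV replicate 3 was the highest of the 4 WT GV libraries for all 4 members, and its family sum of 2544 FPKM compared with 1764 to 1992 FPKM in the other WT GV libraries.

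Obox3 and Obox6 were near the limit of detection. The FPKM values of each fell on whole multiples of 1 step per library, within 0.01 of a whole fragment, at lengths of 1605 and 1338 bases beside annotated transcripts of 1603 and 1344 bases, so fragments could be counted. Obox3 rested on 3 to 10 fragments in WT GV oocytes, 7 to 11 in cKO GV oocytes, and among eggs 0 to 5 in WT and 0 to 9 in cKO. In FPKM it was at 0.407, 0.223, 0.226 and 0.167 in WT GV oocytes, at 0.390, 0.426, 0.279 and 0.652 in cKO GV oocytes, at 0.151, 0.0853, 0.218 and 0 in WT eggs and at 0, 0, 0.0464 and 0.427 in cKO eggs. The groups overlapped in every comparison. Where no fragment was counted, 3 fragments of Obox3 would be 0.127 to 0.147 FPKM, and in the cKO egg library without an Obox6 fragment 3 fragments of Obox6 would be 0.167 FPKM.

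Obox6 was at 0.244, 0.427, 0.272 and 0.266 FPKM in WT GV oocytes and at 0.937, 0.460, 0.717 and 0.640 FPKM in cKO GV oocytes, from 22 fragments in WT and 49 in cKO. These libraries did not overlap, as for 4.62% of the 6233 entries with a mean of 0.1 to 1 FPKM, with an unadjusted exact permutation p of 0.0286 on FPKM. In a limma fit with a floor of 0.1 FPKM and no filter, added after the values were seen, the adjusted p of Obox6 was 0.419 and that of Obox3 was 0.816. In eggs Obox6 was at 0.121, 0.358, 0.0523 and 0.511 FPKM in WT and at 0.255, 0.0586, 0 and 0.740 FPKM in cKO, from 19 fragments in each genotype, and the genotypes overlapped. The 6 entries for Obox3 pseudogenes, which share sequence with Obox3, reached at most 0.935 FPKM. Obox3-ps3, which shares the most windows with Obox3, is not among these entries.

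**Figure D5:**
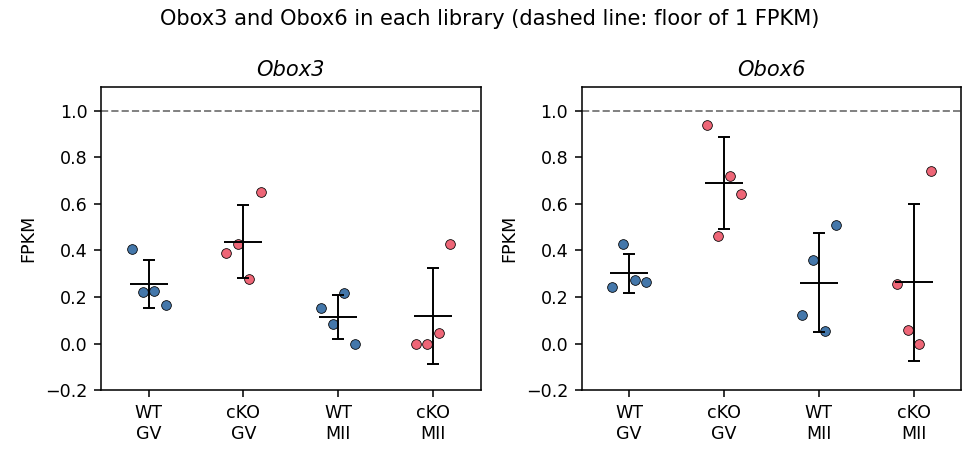
FPKM (y axes) of Obox3 and Obox6 in the 4 libraries of each group, in the order of replicates 1 to 4, with WT in blue, cKO in red, black bars for mean and SD, and a dashed line at the floor of 1 FPKM. All values are below the line, and the Obox6 values of cKO GV oocytes, 0.460 to 0.937, are above those of WT GV oocytes.

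The promoters are shown because Obox1 and Obox5, both abundant, and Obox3, below 1 FPKM, have nearly the same sequence before their annotated starts. The 100 bases before the start in RefSeq (GRCm38.p6) are printed 5′ to 3′ on the gene's strand, with TATATAA in capitals.
Obox5, chr7:15750270-15750369: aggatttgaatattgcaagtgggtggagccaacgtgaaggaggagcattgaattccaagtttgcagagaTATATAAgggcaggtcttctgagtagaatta
Obox1, chr7:15547157-15547256: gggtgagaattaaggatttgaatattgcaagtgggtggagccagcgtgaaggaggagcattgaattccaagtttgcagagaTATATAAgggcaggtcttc
Obox3, chr7:15639778-15639877: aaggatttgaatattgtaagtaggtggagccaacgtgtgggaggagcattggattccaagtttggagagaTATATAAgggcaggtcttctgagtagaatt
RefSeq windows from 250 bases before to 50 after the start were found for 5 members, Obox1, Obox2, Obox3, Obox5 and Obox7. TATATAA, searched on both strands, was in 4 of them and in 3.22% of all 32544 windows, and the 4 shared a run of 42 bases around it. The start of Obox2 is annotated elsewhere in the shared sequence, and its window held no match. GGATTA, a core known for binding by related homeodomains, was in 1 of 5 member windows (Obox3) and in 7.06% of all, and TAATTG in 0 of 5 and in 8.01%. These are matches of letters, and no binding was measured.

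Other homeobox genes of the oocyte and early embryo fell over maturation. Of 16 listed names 5 had an entry that could be tested, Pou5f1, Lhx8, Nobox, Sebox and Otx1, and all 5 fell from GV oocytes to eggs in both WT and cKO, where 52.4% and 51.0% of tested entries fell. Their median log2 fold change was -1.30 in WT and -1.02 in cKO. In eggs 3 of these 5 were higher in cKO than in WT, where 6.53% of entries were, and in GV oocytes 0 of 5 passed the threshold in limma, with 0 at an unadjusted p below 0.05. Lhx8, which oogenesis requires, was at 33.5 ± 8.54 FPKM in cKO eggs and 17.4 ± 1.52 FPKM in WT eggs (SD, n = 4; log2 fold change 0.92, adjusted p = 0.0255 in limma). Sebox, a maternal homeobox gene, was at 43.8 ± 6.62 and 28.3 ± 2.86 FPKM (0.62, adjusted p = 0.0295 in limma), and Pou5f1, the pluripotency factor OCT4, was at 9.62 ± 1.69 and 6.27 ± 0.688 FPKM in its abundant entry (0.61, adjusted p = 0.0407 in limma). All 3 calls were lost without any 1 of the 4 WT egg libraries, at adjusted p of 0.0576 to 0.116 in limma. Log2 fold changes were above 0.5 in each of those fits. Over the 8 fits with 1 egg library left out, WT or cKO, Lhx8 was lost in 4, Sebox in 5 and Pou5f1 in 7. A difference between these genes and the Obox members was not tested.

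Of 20 other factors that act in genome activation, 14 could be tested in GV oocytes, where 0 passed the threshold in limma and 1 had an unadjusted p below 0.05, and 13 in eggs, where 1 was lower in cKO, as 1.49% of entries were, and 0 were higher. That 1 was Yap1, a transcription coactivator kept in the egg, at 28.3 FPKM in cKO eggs and 36.4 FPKM in WT eggs (log2 fold change -0.36 ± 0.07 SE, adjusted p = 0.0313 in limma), and it passed the threshold in 2 of the 8 fits with 1 egg library left out. During WT maturation 5 of 14 rose and 9 fell, where 26.1% of all tested entries rose and 52.4% fell. In cKO 4 of 14 rose and 5 fell, where the shares were 23.0% and 51.0%. The median log2 fold change of this list in eggs was -0.14, beside 0.07 for all tested entries. An unadjusted p below 0.05 in limma was found in eggs for 5 of 13, both directions counted, where 29.4% of entries had one.

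Outside the Obox family, the entries most like Obox5 over the 16 libraries, by Pearson r of log2 FPKM among 10611 entries averaging 1 FPKM or more, were Usp7, a ubiquitin-specific protease (0.996), Naa30, an N-terminal acetyltransferase (0.996), Fcho2, an endocytic adaptor (0.996), Med10, a Mediator subunit (0.996) and Triqk (0.995). Med10 went from 111 FPKM in WT GV oocytes to 331 FPKM in WT eggs, and in cKO from 98.3 to 294 FPKM. For Obox2, the member with the largest difference in size between genotypes in eggs, those outside the family were Setd1a, a histone methyltransferase (0.988), Psma2, another alpha subunit of the proteasome core (0.988), Ift43 (0.987), Csnk2a2, a catalytic subunit of casein kinase 2 (0.987) and Oosp3, an oocyte-secreted protein gene (0.985). The difference between stages is part of each r, and 1355 entries had an r of at least 0.9 with Obox5 and 1184 with Obox2.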

How the data were processed

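RNA-seq of 16 libraries was analysed, with groups and replicates from the sample labels and columns matched by name. Per the labels, Smart-seq2 cDNA was made with oligo-dT primers and ERCC RNA was added, and 0 ERCC entries are in the table. The authors deposited FPKM, and the submitters' processing notes name TopHat2 2.1.1, Cufflinks 2.2.1 and mm10. The annotation is not given in the sources used here.

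Values below 1 FPKM were set to 1, as in the study's methods. Entries averaging 1 FPKM or more in the libraries of a comparison were tested on log2 values with limma 3.58.1 in R 4.3.3 (empirical Bayes, intensity trend) at a Benjamini-Hochberg adjusted p of 0.05 over all entries, 2-sided. Fits of a pair of groups used 8 libraries and the interaction 16. Single entries were compared by 2-sided exact permutation tests. Scripts were tested on simulated data. Depth was estimated from steps below 0.6 FPKM and the lengths of 5816 single-transcript genes. Counts cover counting error only.

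The alternatives were another floor, 1 FPKM added, rescaling, other filters, no trend, a replicate block, all libraries in 1 fit, entries summed by name, other folds and each library left out. A floor of 0.1 FPKM without a filter, and permutation tests of Obox3 and Obox6 on unfloored FPKM, were added after seeing the data.

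All Obox entries are named. Other named genes are those of the homeobox and genome activation lists with an adjusted p below 0.05 between genotypes (at most 4 a list), the 5 entries most correlated with the most abundant Obox member and with that of the largest difference in eggs, Psma7, and marker genes. The members and lists were chosen with earlier results of these data known. Sequences came from GENCODE M21 and RefSeq, both GRCm38, matched by symbol for 7 and 5 members.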

Additional observations from a re-analysis of the deposited data

Results flagged for a closer look

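In 2 of 24 sets of 4 libraries (6 members in 4 groups), 1 library stood apart from the other 3 by Dixon's test at 95%, which chance does in about 1 of 20 sets. Obox3 was at 0.427 FPKM in cKO MII replicate 4, from 9 fragments, and at 0 to 0.0464 FPKM in the other cKO eggs. Obox6 was at 0.427 FPKM in WT GV replicate 2, from 8 fragments, and at 0.244 to 0.272 FPKM in the other WT GV oocytes. Both rest on few fragments, and the cause was not tested.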

How the results depend on the processing

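The number of tested Obox members past the adjusted threshold was 0 in GV oocytes, 0 in eggs, 4 in each maturation comparison and 0 for the interaction under every alternative run, each library left out in turn included. Over 3-fold, the count of 0 in WT and in cKO maturation became 4 at 2-fold and 1 (Obox5) under rescaling by the median ratio, by the construction of these alternatives, and stayed at 0 under the others. Rescaling moved the median log2 fold change of all entries from -0.44 to -0.21 in WT maturation and from -0.42 to -0.22 in cKO maturation, and that of Obox5 from 1.44 to 1.67 and from 1.43 to 1.63. Under it the calls in GV oocytes were 5 higher and 2 lower in cKO in place of 11 and 2 (71.4% higher in place of 84.6%). In eggs they were 537 higher and 223 lower in place of 620 and 141 (70.7% higher in place of 81.5%). Obox1 in eggs was at -0.27 under rescaling (adjusted p = 0.0921 in limma). Over all its alternatives the adjusted p of Obox1 in eggs ranged from 0.0921 to 0.495.

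Signs changed only where values were near 0 and not past the threshold. Without 1 library the log2 fold change of Obox1 in GV oocytes ranged from -0.19 to 0.0050, and the interaction from -0.20 to 0.019 for Obox2 and from -0.11 to 0.056 for Obox5. The sign turned for Obox2 without WT GV replicate 1 (0.0072), WT GV replicate 2 (0.019), cKO GV replicate 4 (0.0096), WT MII replicate 1 (0.013) or WT MII replicate 2 (0.0043). It turned for Obox5 without replicate 1 (0.056), 2 (0.030) or 4 (0.0023) of WT GV, 1 (0.032), 2 (0.013) or 4 (0.026) of cKO GV, 1 (0.018) or 2 (0.016) of WT MII or 1 of cKO MII (0.055).

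Replicate numbers were not seen to pair the libraries. The correlation of same-numbered deviations from group means was -0.50 to 0.29 over 24 pairs, and 9 of 48 cases correlated best with their own number. With 4 libraries in a group this check is weak, and whether same-numbered libraries were prepared together was not tested. With the replicate number as a block the calls among members were 0, 0, 4, 4 and 0, while all calls in eggs went from 761 to 101 higher and 7 lower, and adjusted p of Lhx8, Sebox, Pou5f1 and Yap1 in eggs was 0.0515 to 0.0891 in limma. Depth limits Obox3 and Obox6, which rest on 0 to 16 fragments per library.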
